A study of Mus musculus with 2 samples.

Results

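The 8 mouse genes Adra2a, Adra2b, Adra2c, Adra1a, Adra1b, Adra1d, Adrb1 and Adrb3 encode receptors for adrenaline and noradrenaline, and were followed here across the cells of the pancreatic islet. They were chosen by their gene symbols out of the 32285 genes in the deposited matrices, and each symbol matched 1 gene. RNA was counted in single islet cells caught in droplets, where each unique molecular identifier (UMI) stands for 1 captured RNA molecule. The CDS library came from mice that the labels call DIO, given 10 mg/kg of an agent labelled CDS for 2 weeks. The saline library came from DIO mice given saline for the same 2 weeks. DIO is therefore shared by both groups, and no untreated or lean group was analysed here. The series title names an antagonist of the alpha2A-adrenergic receptor that acts in the periphery, and whether CDS is that compound is not stated in the labels. Strain, sex, age and the number of mice behind each library were not found in the labels either.

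Adrenergic receptors are G protein-coupled receptors that fall into 3 families. Alpha2 receptors couple to Gi and Go proteins, which lower cyclic AMP, open potassium channels of the GIRK family and, in beta cells, hold back insulin release. Alpha1 receptors couple to Gq and G11 proteins and raise cell calcium. Beta receptors couple to Gs and raise cyclic AMP, and catecholamines are long known to stimulate glucagon release from alpha cells.

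Each group had 1 library, so no difference between CDS and saline has a replicate check. The 95% intervals are exact Poisson or exact binomial (Clopper-Pearson) ones, cover counting error only, and no p-values are given. The CDS library held 7268 barcodes and 141191447 UMIs, and the saline library 12453 barcodes and 124343325 UMIs. After filters and removal of called doublets, 6159 CDS cells with a median of 19069 UMIs and 10977 saline cells with a median of 9794 UMIs were kept. Mitochondrially encoded genes took a median of 1.42% of UMIs in CDS cells and 2.47% in saline cells, and 18 kept barcodes occurred in both libraries. The label gives the cell type as islet b cell, but hormone and marker RNA showed many other cells. Gates on hormone RNA gave 3637 CDS and 4967 saline beta-like cells (insulin), 569 and 696 alpha-like cells (glucagon), 124 and 245 delta-like cells (somatostatin), and 101 and 200 PP-like cells (pancreatic polypeptide). Cells above the limits for both glucagon and Ppy (415 CDS and 219 saline) or both somatostatin and Ppy (323 and 254) were kept apart, a split made after the data were seen. Marker gates gave 244 CDS and 346 saline endothelial-like cells and 133 and 153 macrophage-like cells. The acinar gate held cells with a median of only 0.826% (CDS) and 0.578% (saline) of UMIs from acinar markers, so it is named for its gate only.

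Of the 8 genes, 3 were detected beyond stray counts. Adra2a, the alpha2A receptor, had 3396 UMIs in all CDS barcodes and 2994 in all saline barcodes. Adra1a, the alpha1A receptor, had 792 and 774, and Adrb1, the beta1 receptor, had 235 and 168. The other 5 genes were close to 0 throughout. Adra2b had 1 UMI in each library, Adra2c had 0 in CDS and 1 in saline, Adra1b had 5 and 9, Adra1d had 0 and 2, and Adrb3, the beta receptor best known from fat cells, had 1 and 3. No gated class held more than 3 UMIs of any of these 5 in either library. Their presence at lower levels was not detectable at this depth, and no difference can be read from them. Adra1d and Adrb3 overlap antisense genes in the annotation (Gm14285 and Gm45470), and no label or header says whether the counting used strand.

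The 3 detected genes differ in layout. On GENCODE's mm10 annotation, Adra2a (ENSMUSG00000033717) lies at chr19:54044151-54048982 on the plus strand, spans 4.83 kb and has 1 or 2 exons depending on the transcript. Adrb1 (ENSMUSG00000035283) lies at chr19:56722199-56733113 on the plus strand, spans 10.9 kb and has 1 to 3 exons. Adra1a (ENSMUSG00000045875) lies at chr14:66635251-66771168 on the plus strand, spans 135.9 kb and has 2 to 4 exons. The span matters below because the ratio of CDS over saline differed between short and long genes in these libraries.

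The stretch just before the RefSeq start is shown for the 2 detected genes that have a promoter entry, because their start regions differ in the TATA box. Each line gives the last 30 bases before the RefSeq start on GRCm38.p6, 5′ to 3′ on the plus strand, at chr19:54045229-54045258 for Adra2a and chr19:56722087-56722116 for Adrb1. Capitals mark a TATA box (TATAAA).
Adra2a: cTATAAAaccagtccagcgtagagcggcgg
Adrb1: gggtgttggagccgccggccccgcgcgctc
The 250 bases before each start were searched on both strands for TATAAA, the cyclic AMP response element TGACGTCA, the E-box CACGTG, the homeobox core TAATTA, the MAF site core TGCTGA and the SP1 box GGGCGG. The Adra2a window held TATAAA from 29 bases before the start, CACGTG from 80 and GGGCGG from 102, with no overlap between them. The Adrb1 window held a single match, the SP1 box on the reverse strand from 202 bases before the start. Of 32851 mouse promoter windows of the same length, 12.4% held TATAAA, 6.02% CACGTG and 32.7% GGGCGG. TGACGTCA was in 1.55% of them, TAATTA in 4.84% and TGCTGA in 16.1%, and neither gene had any of these 3. The RefSeq start of Adra2a lies inside the longer of its GENCODE transcripts, so the shown bases are upstream of 1 annotated start only. A match is a description of the letters and not a binding site.

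Adra2a RNA was concentrated in beta-like cells, which held 92.8% of its kept UMIs in the CDS library and 94.0% in the saline library. Its level, in UMIs per 1000000 UMIs of the class (CPM), was 29.7 CPM (28.7 to 30.8, from 2960 UMIs) in CDS beta-like cells and 32.6 CPM (31.3 to 33.8, from 2612 UMIs) in saline beta-like cells. It was far lower in alpha-like cells, at 2.07 CPM (1.10 to 3.54) in CDS and 2.38 CPM (1.27 to 4.07) in saline, from 13 UMIs each. Beta-like cells thus stood 14.4-fold (8.39 to 27.0) above alpha-like cells in CDS and 13.7-fold (7.98 to 25.7) in saline. With hormone, acinar and mitochondrially encoded genes left out of the total, the folds were 23.2 in CDS and 19.9 in saline. In CPM of all UMIs, the intervals of beta-like and every other gated class with at least 50 cells in both libraries were apart.

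The counts outside beta-like cells were set against what free beta cell RNA would bring. Droplets of all classes carried insulin RNA, at a median of 1.82% of UMIs in CDS and 1.90% in saline alpha-like cells. If Adra2a came along with insulin RNA in the ratio seen in beta-like cells, alpha-like cells would hold 8.61 Adra2a UMIs in CDS and 9.76 in saline, against the 13 counted in each. Read against this background, Adra2a in alpha-like cells was not detectable beyond free RNA at this depth. Saline B-like and T-like cells, which should lack endocrine RNA, stood at 3.97 CPM (1.59 to 8.17) and 4.06 CPM (1.86 to 7.71), point values above the 2.38 CPM of saline alpha-like cells.

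Delta-like cells lay between. They held 16 Adra2a UMIs in CDS and 13 in saline, against 1.84 and 3.57 from free RNA. Their level was 10.1 CPM (5.79 to 16.4) in CDS and 5.38 CPM (2.86 to 9.20) in saline. Delta-like cells that also carried Ppy RNA, a separate set of cells, stood at 9.50 CPM (6.96 to 12.7; 46 UMIs against 6.36 from free RNA) in CDS and 8.73 CPM (5.53 to 13.1; 23 UMIs against 4.40) in saline. In both sets and both libraries the count exceeded the free RNA figure. Beta-like cells stood 2.94-fold (1.80 to 5.14) above delta-like cells in CDS and 6.05-fold (3.53 to 11.4) in saline. With hormone, acinar and mitochondrially encoded genes left out of the total, these folds were 4.69 and 8.68.

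PP-like and ductal-like cells were split by library. PP-like cells held 15 UMIs in CDS, against 2.64 from free RNA, and 6 in saline, against 5.14. Ductal-like cells held 13 UMIs in CDS, against 2.63, and 7 in saline, against 4.25. The CDS counts of both classes lay above the free RNA figure, while the saline counts lay near it. Endothelial-like cells (1 UMI in CDS and 6 in saline) and macrophage-like cells (1 and 2) lay near it in both libraries. Below beta-like cells, the order of delta-like, PP-like and ductal-like cells could not be told within the counting error.

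**Figure D1:**
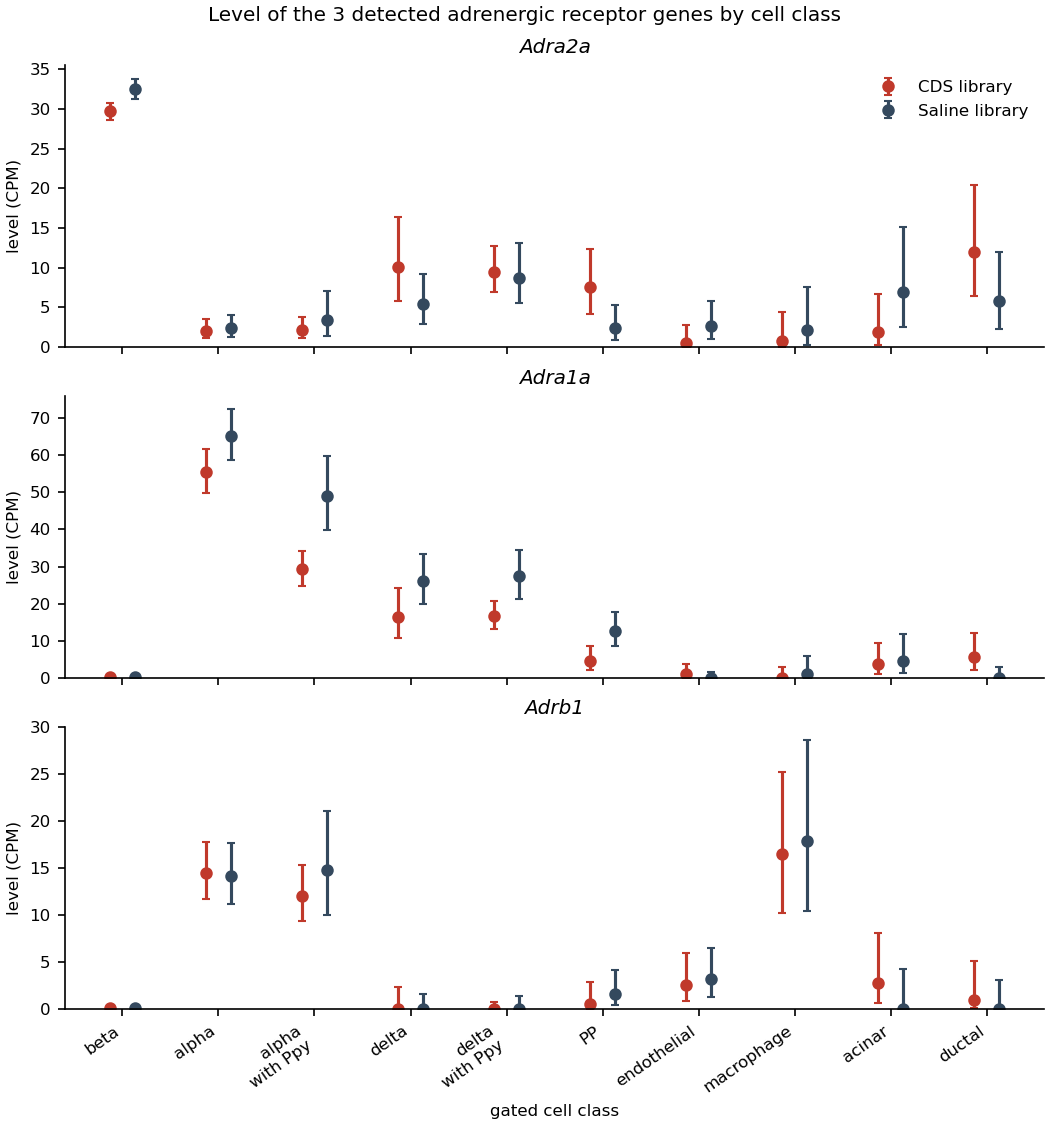
Level of Adra2a, Adra1a and Adrb1 (CPM, UMIs per 1000000 UMIs of the class, y axis) in 10 gated cell classes (x axis), with the CDS library in red and the saline library in dark blue. Points are class sums and bars exact Poisson 95% intervals, and Adra2a stands apart in beta-like cells (29.7 CPM in CDS and 32.6 in saline), Adra1a in alpha-like cells (55.5 and 65.2), and Adrb1 in alpha-like (14.5 and 14.1) and macrophage-like cells (16.5 and 17.9).

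Adra1a showed the reverse placement, with its highest level in alpha-like cells and almost none in beta-like cells. Alpha-like cells held 349 UMIs in CDS, or 55.5 CPM (49.8 to 61.7), and 356 in saline, or 65.2 CPM (58.6 to 72.3). The far more numerous beta-like cells held only 20 UMIs in CDS and 22 in saline. Free alpha cell RNA alone, scaled by glucagon RNA, would bring 23.8 UMIs to beta-like cells in CDS and 18.2 in saline. Adra1a was therefore not detectable in beta-like cells beyond free RNA. Alpha-like cells stood 276-fold (176 to 458) above beta-like cells in CDS and 238-fold (155 to 384) in saline, and the beta-like side of these folds lies at the level of free RNA. With hormone, acinar and mitochondrially encoded genes left out of the total, they were 171-fold in CDS and 163-fold in saline.

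Delta-like cells came next. They stood at 16.5 CPM (10.8 to 24.1, from 26 UMIs) in CDS and 26.1 CPM (20.0 to 33.4, from 63 UMIs) in saline, where free alpha cell RNA would bring 0.399 and 0.621 UMIs. Delta-like cells with Ppy RNA gave nearly the same values, 16.7 CPM (13.3 to 20.8) in CDS and 27.3 CPM (21.4 to 34.4) in saline. The alpha-like level was 3.37-fold (2.26 to 5.24) that of delta-like cells in CDS and 2.50-fold (1.91 to 3.32) in saline.

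PP-like cells were lower again, at 4.52 CPM (2.07 to 8.58, from 9 UMIs) in CDS and 12.5 CPM (8.50 to 17.7, from 31 UMIs) in saline. Free alpha cell RNA would bring 1.18 UMIs to these cells in CDS and 0.905 in saline. The order alpha-like, delta-like, PP-like was the same in both libraries, and the intervals of the neighbouring ratios lay above 1, at 3.64 (1.65 to 8.84) for delta-like over PP-like cells in CDS and 2.09 (1.34 to 3.32) in saline. With hormone, acinar and mitochondrially encoded genes left out, delta-like over PP-like was 2.82 in CDS and 1.80 in saline. The 31 saline UMIs lay in 15 of 200 PP-like cells, so these Poisson intervals are too narrow. Outside hormone cells the counts were small, with 6 UMIs in CDS and 0 in saline ductal-like cells, 4 and 4 in the acinar gate, 2 and 0 in endothelial-like cells and 0 and 1 in macrophage-like cells.

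Alpha-like cells that also carried Ppy RNA, above 0.447% of UMIs in CDS and 0.851% in saline, had a lower counted level of Adra1a than those below these limits. They stood at 29.2 CPM (24.9 to 34.1, from 160 UMIs) in CDS and 49.1 CPM (39.96 to 59.7, from 100 UMIs) in saline. Relative to alpha-like cells below the Ppy limit this was 0.526-fold (0.434 to 0.636) in CDS and 0.753-fold (0.597 to 0.943) in saline. With hormone, acinar and mitochondrially encoded genes left out of the total it was 0.565-fold in CDS and 0.812-fold in saline. No interval was computed on that scale, and no share of all genes between these sets. The intervals given assume a Poisson spread, and Adra1a was more clustered than that in alpha-like cells (below). They are therefore too narrow, and the saline one, which ends at 0.943, does not settle the direction. Adrb1 did not separate the same cells, at 0.833-fold (0.597 to 1.16) in CDS and 1.04-fold (0.661 to 1.61) in saline, intervals that include 1.

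Adrb1 stood highest in alpha-like and macrophage-like cells. Alpha-like cells held 91 UMIs in CDS, or 14.5 CPM (11.7 to 17.8), and 77 in saline, or 14.1 CPM (11.1 to 17.6). Alpha-like cells with Ppy RNA stood at 12.1 CPM (9.32 to 15.3) in CDS and 14.7 CPM (9.94 to 21.0) in saline. Macrophage-like cells, the resident immune cells of the islet, stood at 16.5 CPM (10.2 to 25.2, from 21 UMIs) in CDS and 17.9 CPM (10.4 to 28.6, from 17 UMIs) in saline. Free alpha cell RNA would bring under 1 of these UMIs, 0.0863 in CDS and 0.0594 in saline. The ratio of alpha-like over macrophage-like cells was 0.878 (0.542 to 1.49) in CDS and 0.789 (0.463 to 1.42) in saline, so the 2 levels were not told apart.

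Adrb1 was at or near 0 in the other endocrine cells. Delta-like cells held 0 UMIs in both libraries, which with 3 counts as the limit allows up to 1.90 CPM in CDS and 1.24 CPM in saline. Delta-like cells with Ppy RNA also held 0 in both. Beta-like cells held 5 UMIs in each library, against 6.21 in CDS and 3.94 in saline from free alpha cell RNA. PP-like cells held 1 UMI in CDS and 4 in saline, against 0.308 and 0.196, so the saline count lay above free RNA. Endothelial-like cells held 5 UMIs in CDS (2.52 CPM, 0.819 to 5.89) and 7 in saline (3.12 CPM, 1.26 to 6.43), where free alpha cell RNA would bring 0.143 and 0.126. Their count thus exceeded free alpha cell RNA in both libraries, at a level well below that of alpha-like and macrophage-like cells. Delta-like cells thus had Adra1a in common with alpha-like cells, and no detected Adrb1.

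**Figure D2:**
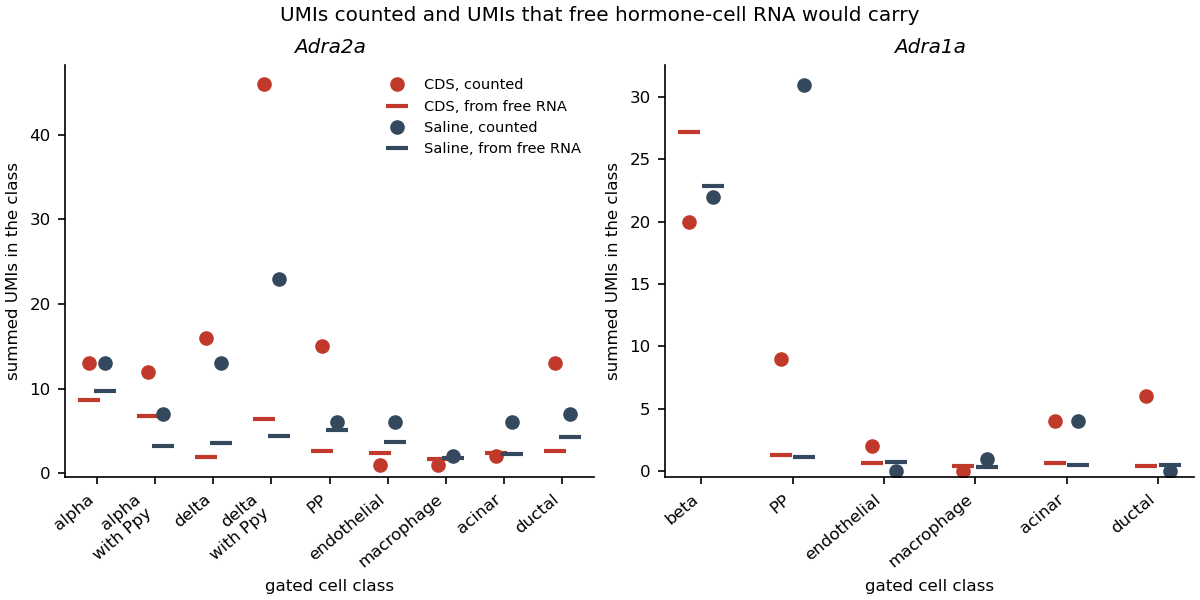
UMIs of Adra2a (left) and Adra1a (right) summed over each class (y axis), as counted (dots) and as free RNA from other hormone cells would bring them (dashes), in the CDS library (red) and the saline library (dark blue). Beta-like RNA was the source for Adra2a and alpha-like plus delta-like RNA for Adra1a. Adra2a in both delta-like sets lies above its dashes (16 and 46 UMIs in CDS, 13 and 23 in saline), while Adra1a in beta-like cells (20 in CDS and 22 in saline) does not.

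How the RNA was spread over single cells differed between the genes. To set cells side by side, each was thinned to the same number of UMIs. At 10000 UMIs, 24.97% (23.5 to 26.5) of 3172 CDS beta-like cells and 26.3% (25.04 to 27.7) of 4400 saline ones had at least 1 Adra2a UMI. A Poisson spread of the same mean would give 26.3% in CDS and 28.0% in saline. The variance over the mean was 1.13 in CDS and 1.16 in saline, where 1 is the Poisson value. Cells with 2 or more UMIs numbered 151 in CDS, against 121 from a Poisson spread, and 232 in saline, against 191. The spread was thus somewhat wider than counting alone gives. At 3000 UMIs the variance over the mean was 1.03 in both libraries, and of the other genes with a mean from 0.5 to 2 times that of Adra2a, 45.9% in CDS and 42.2% in saline had as high a value. Adra2a was therefore not set apart from other genes of its level in this measure. A cell without a UMI at these depths cannot be called a cell that lacks Adra2a. At 3000 UMIs the share was 8.08% (7.19 to 9.04) in CDS and 9.18% (8.38 to 10.0) in saline, against 0.746% of saline B-like cells and 0.469% of saline T-like cells. The median depth before thinning was 27311 UMIs in CDS and 15775 in saline beta-like cells, 1955 in saline B-like cells and 2509 in saline T-like cells, and 171 CDS and 129 saline beta-like cells below 3000 UMIs were left out.

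Adra1a was more clustered. At 10000 UMIs, 26.0% (21.4 to 31.0) of 339 CDS alpha-like cells and 25.4% (18.3 to 33.6) of 134 saline ones had a UMI, where a Poisson spread would give 44.4% and 38.0%. The variance over the mean was 2.92 in CDS and 2.45 in saline. At 3000 UMIs it was 1.41 in CDS and 1.65 in saline, and of the other genes with a mean from 0.5 to 2 times that of Adra1a, 123 of 3883 in CDS and 49 of 3909 in saline had as high a value. At full depth 18 of the 569 CDS alpha-like cells and 12 of the 696 saline ones had 5 or more UMIs, and they held 32.7% of the Adra1a UMIs in CDS and 20.8% in saline. No Adra1a UMI was found in 421 CDS and 516 saline alpha-like cells. Because of this clustering, the Poisson intervals of Adra1a given here are too narrow.

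Adrb1 lay closer to a Poisson spread. Its variance over the mean at 3000 UMIs was 0.956 in CDS and 0.954 in saline, where few cells had any UMI. At 10000 UMIs it was 1.15 in CDS and 0.984 in saline, and 8 CDS alpha-like cells had 2 or more UMIs, against 4.87 from a Poisson spread. No alpha-like cell thinned to 10000 UMIs had more than 3. At full depth, cells with both Adra1a and Adrb1 numbered 22 in CDS and 22 in saline, where unrelated detection would give 20.8 and 18.4. At 3000 UMIs they numbered 6 in CDS, against 3.73, and 4 in saline, against 4.42. At full depth, joint detection thus lay near the figure for unrelated genes, a figure that leaves out differences in depth between cells. No interval was computed, and the few cells at 3000 UMIs could not tell an association from none.

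The Adra1a level also differed along the glucagon content of alpha-like cells. In 4 equal groups of cells ordered from low to high glucagon share, Adra1a stood at 90.3, 54.2, 51.5 and 37.4 CPM in the CDS library and at 102.3, 91.7, 51.3 and 31.4 CPM in the saline library. The group with the least glucagon RNA was highest in both libraries. Glucagon RNA itself takes up part of the total, so the levels were also computed with hormone, acinar and mitochondrially encoded genes left out of the total (non-hormone CPM). On this scale the top group was 0.478-fold (0.348 to 0.653) the bottom group in CDS and 0.345-fold (0.241 to 0.487) in saline. Of all measured genes, 40.7% in CDS and 29.4% in saline were at a ratio of 0.8 or less between the same groups, and 29.1% and 29.5% were past the matching upper limit, a log2 ratio of 0.32. Gene span moved with this ordering. Among the longest 20% of genes, where Adra1a belongs, the median ratio was 0.556 in CDS and 0.721 in saline, and 89.1% and 68.1% of them were at 0.8 or less. The long-gene median lay inside the counting interval of Adra1a in CDS and above it in saline. Of all measured genes, 7.94% of 7511 in CDS and 0.464% of 7116 in saline had as low a ratio as Adra1a. The share of long genes with as low a ratio was not computed. Median depth also differed, from 7896 UMIs in the lowest to 13135 in the highest CDS group and from 5573 to 9037 in saline. Ordered by total UMIs instead, from low to high, Adra1a stood at 71.0, 63.5, 75.8 and 61.3 non-hormone CPM in CDS and at 99.2, 87.3, 76.6 and 64.6 in saline. The level thus went down with depth in each step in saline and showed no steady order in CDS.

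Adrb1 did not follow the glucagon share, with a ratio of top over bottom group of 1.05 (0.529 to 2.15) in CDS and 0.997 (0.496 to 2.04) in saline. These intervals are wide, from 22 and 16 UMIs in CDS and 21 and 16 in saline. By mitochondrial share, Adra1a stood at 34.9, 55.7, 67.8 and 72.0 CPM from the lowest to the highest group in CDS and at 50.4, 56.4, 59.8 and 105.7 CPM in saline. Median depth fell along the same order, from 13582 to 7462 UMIs in CDS and from 8638 to 5953.5 in saline. No share of all genes was computed for this ordering.

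**Figure D3:**
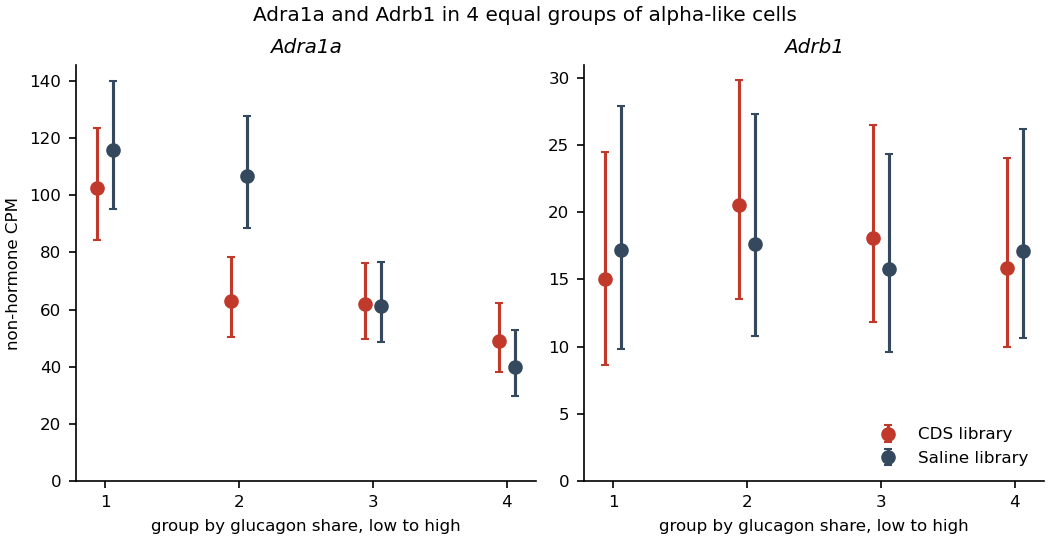
Adra1a (left) and Adrb1 (right) in alpha-like cells cut into 4 equal groups by glucagon share of UMIs (x axis, low to high), in non-hormone CPM (y axis), with exact Poisson 95% intervals, CDS in red and saline in dark blue. Adra1a is highest in the lowest group and lowest in the highest group in both libraries, a ratio of top over bottom of 0.478 in CDS and 0.345 in saline, while Adrb1 shows no such order.

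Among beta-like cells, Adra2a differed little along most measures of cell state once the total was freed of hormone RNA. Ordered by insulin share, plain levels were 34.5, 33.6, 29.7 and 23.3 CPM from the lowest to the highest group in CDS and 38.7, 35.8, 30.6 and 26.9 CPM in saline. In non-hormone CPM the same groups stood at 52.2, 61.0, 61.0 and 57.0 in CDS and at 57.4, 59.4, 54.9 and 55.4 in saline. The lower plain levels at high insulin share were therefore not seen on the other scale. Groups by total UMIs ranged from 53.8 to 60.9 non-hormone CPM in CDS and from 52.9 to 61.0 in saline, and groups by mitochondrial share from 54.3 to 61.2 and from 54.8 to 58.4. Groups by metallothionein share (Mt1 and Mt2, metal-binding proteins) ranged from 55.4 to 62.6 in CDS and from 51.8 to 60.9 in saline.

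Only with the stress and maturity genes did the level rise in each step in both libraries. In saline the maturity groups, from 53.4 to 61.8 non-hormone CPM, did not range more widely than those by metallothionein share (51.8 to 60.9). Saline groups by total UMIs had a like range (52.9 to 61.0). By the summed share of Ddit3, Atf3, Trib3 and Chac1, genes of the integrated stress response, Adra2a stood at 51.0, 54.1, 62.3 and 62.9 non-hormone CPM from the lowest to the highest group in CDS and at 50.4, 51.7, 56.1 and 68.3 in saline. The top group was 1.23-fold (1.10 to 1.38) the bottom group in CDS and 1.35-fold (1.21 to 1.52) in saline. Of all measured genes, 13.7% in CDS and 11.6% in saline were past the upper limit between the same groups, and 19.3% and 11.8% past the lower one. Adra2a itself passed the upper limit in saline only. The bottom groups held only cells without a UMI of these genes, some of which also fell into the next group, and were shallower, with medians of 21840 UMIs in CDS and 14485 in saline.

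By the summed share of Ucn3, Slc2a2, Mafa and G6pc2, genes of mature beta cells, Adra2a stood at 47.9, 57.5, 60.2 and 64.8 non-hormone CPM from the lowest to the highest group in CDS and at 53.4, 54.3, 58.0 and 61.8 in saline. The top group was 1.35-fold (1.21 to 1.51) the bottom group in CDS and 1.16-fold (1.03 to 1.29) in saline. Here 26.3% of all measured genes in CDS and 12.1% in saline were past the upper limit, and 15.1% and 16.7% past the lower one. By this ordering Adra2a itself passed the upper limit in CDS only. Adra2a thus stood higher in cells rich in maturity genes and in cells rich in stress genes, in both libraries, by less than 1.5-fold each time.

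**Figure D4:**
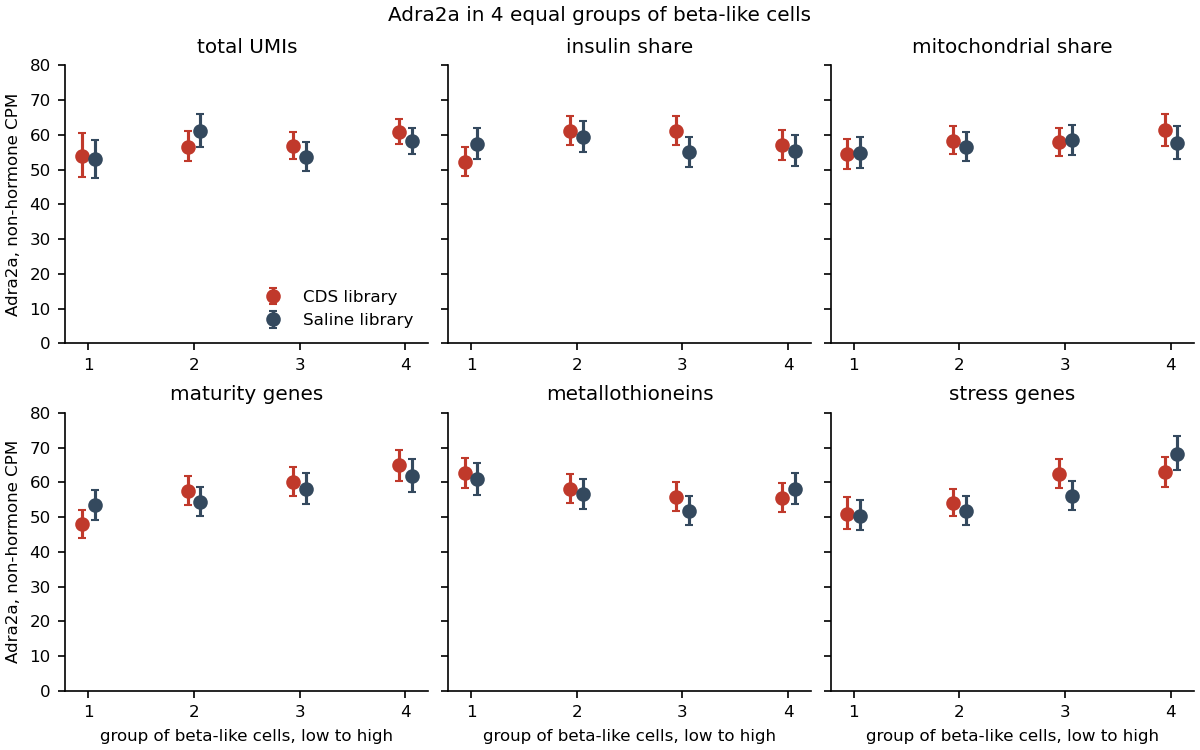
Adra2a in beta-like cells cut into 4 equal groups by 6 measures in turn (x axis, low to high), in non-hormone CPM (y axis), with exact Poisson 95% intervals, CDS in red and saline in dark blue. The top group exceeds the bottom one in both libraries by stress genes (62.9 against 51.0 in CDS, 68.3 against 50.4 in saline) and by maturity genes (64.8 against 47.9, and 61.8 against 53.4). Groups by mitochondrial share range only from 54.3 to 61.2. In saline, groups by metallothionein share (51.8 to 60.9) range no less than those by maturity genes.

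Whether the receptor genes differed between CDS and saline was asked within each class. Class sums were scaled with TMM, a factor per library that centres the bulk of the genes, and a ratio was given where both libraries together had at least 50 UMIs. The Adra2a ratio of CDS over saline in beta-like cells was 1.21 (1.14 to 1.27) with TMM, but 0.913 (0.866 to 0.963) in plain CPM, so its direction turned with the scaling. In non-hormone CPM it was 1.02 (0.968 to 1.08), and with cells thinned to 3000 UMIs it was 1.07 (0.919 to 1.23). No scaling put it past a log2 ratio of 0.32 or below a ratio of 0.8. With TMM 29.9% of the 15314 measured genes in these cells were past the upper limit and 20.9% at 0.8 or less, and in plain CPM 10.3% and 51.7%. The median log2 ratio of all genes was 0.061 with TMM and -0.34 in plain CPM, so the scalings differ by a shift of all genes. Among the shortest 20% of genes, where Adra2a belongs, the median log2 ratio was 0.50 with TMM, above the 0.27 of Adra2a.

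Outside beta-like cells the counts of Adra2a allowed little. The alpha-like ratio was 0.919 (0.393 to 2.15) from 13 UMIs in each library. The delta-like ratio was 2.00 (0.903 to 4.52) from 16 UMIs in CDS and 13 in saline, fewer than the 50 set as a minimum. In delta-like cells with Ppy RNA it was 1.21 (0.716 to 2.08). All 3 intervals include 1, but that of delta-like cells lay above 1 with the looser filter (1.80, 1.08 to 3.02) and with Leiden clusters (1.51, 1.07 to 2.17). With TMM 22.1% of 8652 genes in delta-like cells and 26.3% of 10253 in delta-like cells with Ppy RNA were past the upper limit.

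The Adra1a ratio of CDS over saline was below 1 in all 4 alpha-like and delta-like sets, with TMM, plain CPM and non-hormone CPM, and went above 1 for alpha-like cells only with cells thinned to 3000 UMIs (1.04, 0.796 to 1.34), of the 13 alternatives run there. The ratio was 0.901 (0.775 to 1.05) in alpha-like cells, with 17.2% of 11123 genes there at 0.8 or less. It was 0.657 (0.508 to 0.852) in alpha-like cells with Ppy RNA, where 14.7% of 9972 genes were at 0.8 or less. It was 0.671 (0.408 to 1.08) in delta-like cells, with 22.7% of genes at 0.8 or less, and 0.678 (0.488 to 0.945) in delta-like cells with Ppy RNA, with 17.4% at 0.8 or less. The Ppy limit was 0.447% of UMIs in CDS and 0.851% in saline, so the sets with Ppy RNA were cut differently. Their median Ppy share was 1.44% in CDS and 2.37% in saline alpha-like cells, and 2.13% and 1.91% in delta-like cells. Exchanged gates were not run for these sets. With TMM, the 2 sets with Ppy RNA had intervals below 1, and the 2 sets below the Ppy limit had intervals that included it. These intervals assume a Poisson spread, where the variance over the mean is 1. For Adra1a at 10000 UMIs it was 2.92 in CDS and 2.45 in saline alpha-like cells, and 2.27 and 1.51 in delta-like cells. The intervals are therefore too narrow, and one that ends just below 1 does not settle the direction. In alpha-like cells, whether the interval included 1 depended on the setting. The interval lay below 1 in plain CPM (0.732 to 0.990), in non-hormone CPM (0.739 to 0.999), with the looser filter (0.720 to 0.951), at 2 times the gate (0.726 to 0.971), with Leiden clusters (0.740 to 0.948) and with the libraries' gates exchanged (0.726 to 0.988). It also did so when all alpha-like cells with Ppy RNA were taken in (0.693 to 0.896). Leiden clusters, 2 times the gate and, in CDS, the exchanged gates also take in cells above the main Ppy limit. These settings are thus not free of cells with Ppy RNA.

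Long genes as a group stood below 1 too. Among the longest 20% of genes, which take in Adra1a, the median log2 ratio with TMM was -0.28 in alpha-like cells, -0.20 in alpha-like cells with Ppy RNA, -0.35 in delta-like cells and -0.30 in delta-like cells with Ppy RNA. Adra1a stood at log2 ratios of -0.15, -0.61, -0.57 and -0.56 in the same order. Of these long genes, 42.8%, 32.0%, 53.5% and 46.4% were at 0.8 or less. The long-gene median lay inside the counting interval of Adra1a in 3 of the 4 sets, and just above it in alpha-like cells with Ppy RNA. The part of gene span in the result was not tested further.

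Adrb1 showed no difference that the counts could resolve. The ratio was 1.09 (0.793 to 1.49) in alpha-like cells and 0.903 (0.578 to 1.44) in alpha-like cells with Ppy RNA. In macrophage-like cells 21 UMIs in CDS and 17 in saline were too few for a ratio under the same minimum.

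**Figure D5:**
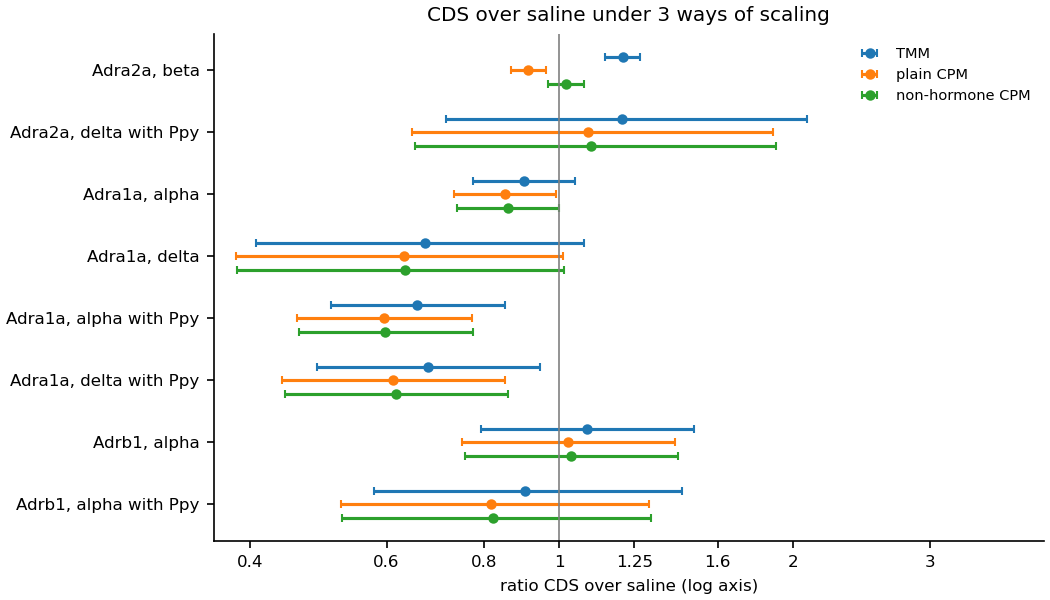
Ratio of the CDS over the saline library (x axis, log scale) for each receptor gene and class (y axis) whose summed UMIs reach 50, under 3 ways of scaling in 3 colours, with exact conditional 95% intervals for a pair of Poisson counts. Adra2a in beta-like cells lies at 1.21 with TMM, 0.913 in plain CPM and 1.02 in non-hormone CPM, while Adra1a lies below 1 under all 3 in each of its 4 sets.

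The genes whose levels went most like those of each receptor were sought over 16 sums (8 classes in each library) among 12887 genes, as a description. For Adra2a these were Fer1l6 (Pearson r 0.893), the noncoding B830017H08Rik (0.881), Fam151a (0.880), Asb11 (0.863) and Glp1r (0.863), the gene of the GLP-1 receptor that raises cyclic AMP in beta cells. Glp1r stood at 144.0 CPM in CDS and 202.7 CPM in saline beta-like cells, and at 42.4 and 56.3 CPM in delta-like cells. For Adra1a they were Gm26618 (0.928), Akap17b (0.925) and the dynein gene Dnah11 (0.924). For Adrb1 they included Prex1 (0.867) and Rab3il1 (0.860). The sums share libraries and depth, so these values only name genes with a like placement.

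Genes that act around adrenergic receptors were read in beta-like cells from 6 lists of 40 genes, of which 31 were measured. The lists hold G protein subunits of all 3 receptor families, GIRK channels, adenylyl cyclases, receptor kinases and arrestins, and the genes that handle catecholamines. With TMM 5 were past the upper limit and 13 at 0.8 or less, against 29.9% and 20.9% of all genes, and in plain CPM the counts were 0 and 21. The median log2 ratio of the 31 was -0.25 with TMM. The list genes were set against all genes and not against genes of like span, so the part of gene span in these ratios was not tested. Of the Gi and Go subunits, which alpha2 receptors act through, all 5 were measured, 1 higher and 1 lower. Gnai2 stood at 279.8 CPM in CDS and 244.7 in saline, a TMM ratio of 1.51 (1.48 to 1.54), Gnao1 at 125.3 and 246.8 CPM, a ratio of 0.671 (0.656 to 0.686), and Gnai3 at 83.0 and 91.5 CPM, a ratio of 1.20 (1.16 to 1.24). Of the GIRK channels 2 of 4 were measured and both were lower, Kcnj6 at 25.6 CPM in CDS and 59.3 in saline (0.570, 0.543 to 0.598) and Kcnj3 at 0.522 and 0.910 CPM (0.759, 0.521 to 1.10). Kcnj5 had 2 UMIs in CDS and 4 in saline.

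Of the adenylyl cyclases, which make cyclic AMP, 7 of 9 were measured, 1 higher and 4 lower. Adcy9 stood at 71.3 CPM in CDS and 162.2 in saline (0.581, 0.564 to 0.598), Adcy6 at 14.4 and 20.4 CPM (0.928, 0.864 to 0.997) and Adcy8 at 1.97 and 3.76 CPM (0.691, 0.574 to 0.830). Adcy7 had the lowest ratio, 0.392 (0.196 to 0.741), from 14 UMIs in CDS and 38 in saline. The receptor kinases and arrestins, which switch receptors off, were all measured, with 1 higher and 4 lower of 7. Grk3 stood at 46.2 CPM in CDS and 78.8 in saline (0.775, 0.746 to 0.805), Grk5 at 33.7 and 71.7 CPM (0.621, 0.595 to 0.648) and Grk2 at 48.6 and 50.2 CPM (1.28, 1.23 to 1.34).

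Of the genes that make, carry and break down catecholamines 7 of 12 were measured, with 1 higher and 2 lower. Ddc, the decarboxylase that makes dopamine, stood at 226.1 CPM in CDS and 287.8 in saline (1.04, 1.02 to 1.06). Maob, a monoamine oxidase gene, stood at 54.2 CPM in CDS and 76.9 in saline (0.931, 0.897 to 0.966). The vesicle transporter gene Slc18a2 had the lowest ratio, 0.695 (0.423 to 1.12), from 30 UMIs in CDS and 46 in saline. Dbh, which turns dopamine into noradrenaline, had 0 UMIs in CDS and 2 in saline beta-like cells, and Pnmt, which makes adrenaline, had 0 and 1.

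The Gs, Gq and G11 subunits, through which alpha1 and beta receptors act, were all measured in beta-like cells, with 1 higher and 0 lower of 3. Gnas stood at 578.1 CPM in CDS and 651.7 in saline (1.17, 1.16 to 1.19), Gnaq at 98.7 and 160.9 CPM (0.811, 0.790 to 0.833) and Gna11 at 100.5 and 82.0 CPM (1.62, 1.57 to 1.67). In plain CPM the ratios of Gnas (0.887), Gnai3 (0.908), Grk2 (0.969) and Ddc (0.786) turned below 1. In alpha-like cells, where Adra1a is highest, Gnaq stood at 326.4 CPM in CDS and 429.5 in saline, and Gna11 at 105.2 and 87.7 CPM.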

How the data were processed

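The deposited matrices hold raw, unscaled UMI counts for each gene in each barcode. Per the file headers they were made with Cell Ranger 7.1.0, while Cell Ranger 7.1, Seurat 4, edgeR and build mm10 are named in the submitters' processing notes. No source used here gives the gene annotation or the treatment of intron reads. The labels' protocols name both a v3.1 and a v2 chemistry. The receptor genes, the gene lists and the gates were chosen with earlier results of these data known.

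Barcodes with at least 500 genes, 1000 UMIs and at most 20% mitochondrial UMIs were kept, and doublets called with Scrublet in Scanpy 1.11.5 (expected rate 0.8% per 1000 barcodes) were removed, 256 of 6415 in CDS and 614 of 11591 in saline. Hormone gates lay at the valley of each library's distribution of hormone share, 9.55% (CDS) and 11.7% (saline) for insulin, 1.45% and 0.692% for Gcg, 0.316% and 0.437% for Sst, 0.447% and 0.851% for Ppy. Other classes needed at least 3 markers and 5 UMIs. UMIs were summed per class and library, given as CPM and scaled with TMM (edgeR 4.0.16). A log2 ratio of 0.32 or more, or -0.32 or less (a ratio of 0.8), counted as higher or lower. Tested on Poisson counts simulated around the saline beta-like sums, with known folds in a small part of the genes, the ratios recovered them. The simulated libraries did not differ in depth or in the bulk of their genes, so this could not test the choice of scaling. For each list, the 3 genes highest in beta-like cells and the one with the largest log2 ratio are named, and for likeness the 5 (Adra2a) or 3 (others) genes with the highest r, apart from genes that are not reported here. Spans came from GENCODE, which matched 32158 of 32285 gene IDs, promoters from RefSeq on GRCm38.p6, with an entry for 5 of the 8 genes. The comparison with genes of like span, and that of all genes between groups of cells, were added after the data were seen. Other tools were R 4.3.3, Python 3.11.15, SciPy 1.17.1 and matplotlib 3.10.9.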

Additional observations from a re-analysis of the deposited data

How the results depend on the processing

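No paired analysis was possible because each group had 1 library, and no replicate could be left out. The filters, doublets, gates, Leiden clusters, median-of-ratios factors (DESeq2 1.42.0) and a mean over cells kept the Adra2a ratio in beta-like cells between 1.18 and 1.24. It moved to 0.913 in plain CPM, 1.02 in non-hormone CPM, and 1.07 thinned to 3000 UMIs. The 4573 genes past the upper limit became 1581 in plain CPM. The 3195 at 0.8 or less became 7912 in plain CPM and 6085 without a minimum of UMIs. The Adra2a level in beta-like cells moved to 58.0 in CDS and 56.8 in saline in non-hormone CPM. The Adra1a level in CDS alpha-like cells moved from 55.5 CPM to 46.8 with the looser filter, 49.1 at 2 times the gate, 38.5 with Leiden clusters, 43.3 with Ppy RNA allowed and 67.1 in non-hormone CPM. In saline it moved from 65.2 to 51.7 with Leiden clusters and 78.1 in non-hormone CPM. The cause was not tested. Over 13 alternatives each, the CDS over saline ratio ranged from 0.787 to 1.04 for Adra1a in alpha-like cells, from 0.979 to 1.12 for Adrb1 there, from 0.868 to 1.67 for Adra2a there and from 1.17 to 2.18 for Adra2a in delta-like cells. The alternatives with Ppy RNA allowed and with the libraries' gates exchanged, and all those for Adra1a and Adrb1, were chosen after seeing the data. Barcodes that entered under the looser filter alone were not scored for doublets.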
